A study of Homo sapiens with 8 samples.

Results

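The messenger RNAs of TPX2, of the Aurora kinases AURKA and AURKB and of the proteins that activate or anchor these kinases were followed in IMR32 cells exposed to the translation inhibitor CR31B. The 10 genes are TPX2, AURKA, AURKB, BORA, INCENP, CDCA8, BIRC5, NEDD9, RAN and RCC1. They were chosen by name, with earlier results of these data known, and each matched 1 of the 58787 rows of the count table. IMR32 is an established human neuroblastoma line with amplified MYCN, labelled here as wild type in genotype, so every library comes from a single line. One group of 4 libraries received CR31B at its IC50, a dose the labels give in no other unit, and the other group of 4 received 0.1% DMSO. Collection followed 6 h of treatment. The series text calls the replicates biological. The library pair numbered 1 was sequenced paired-end and pairs 2 to 4 single-end.

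CR31B is a rocaglate, a class of compounds that clamp the RNA helicase eIF4A onto messenger RNA and so block the loading of ribosomes. Aurora A works at centrosomes and along spindle microtubules, and it is switched on when TPX2 binds its kinase domain. Importins keep TPX2 inactive until the GTP-bound form of RAN, made next to chromatin by the exchange factor RCC1, releases it. Aurora B works in the chromosomal passenger complex with INCENP, the borealin protein encoded by CDCA8 and the survivin protein encoded by BIRC5. In MYCN-amplified neuroblastoma Aurora A is also known for binding MYCN protein and slowing its breakdown. The title of the series names TPX2 as a target downstream of eIF4A, and the counts address its messenger RNA only.

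Promoter sequence of 7 members was at hand in RefSeq (GRCh38.p14), as 300 bases reaching from 250 before to 50 after each annotated start. TPX2, AURKA and BIRC5 had no entry. Genes of mitosis often carry the cell cycle homology region, a short element near the start, so TTTGAA and TTCGAA were searched on both strands. A match was present in 4 of the members' 11 promoters, each of a different gene, and in 16.4% of all 34943 promoters of the same length. The 30-base windows around the matches are shown on the gene's strand, with the element in capitals, because their genes differ in response below. Each line gives 1 match.
INCENP: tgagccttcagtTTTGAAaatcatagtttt
CDCA8: gtgactgtggagTTTGAAttgggtggcggt
RAN: gcgtctccggcgTTTGAAttgcgcttccgc
BORA, upstream match: aggctgcgttgaTTTGAAtttggagccacg
BORA, downstream match: gaggagttgccaTTCGAAtttcctacgcgg
The windows lie at chr11:62123989-62124018 for INCENP, chr1:37692481-37692510 for CDCA8, chr12:130872051-130872080 for RAN, and chr13:72727734-72727763 and chr13:72727787-72727816 for BORA, all on the plus strand. The elements of INCENP, CDCA8 and RAN begin 10, 23 and 3 bases before the RefSeq start.

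INCENP and CDCA8 encode partners in 1 complex and went in opposite directions in the single-end libraries, so a longer stretch of both promoters is given, ending at the base before the GENCODE 29 gene start. Capitals mark CCAAT or its reverse complement ATTGG, letters bound by the factor NF-Y and found on either strand in 34.6% of all promoters.
INCENP: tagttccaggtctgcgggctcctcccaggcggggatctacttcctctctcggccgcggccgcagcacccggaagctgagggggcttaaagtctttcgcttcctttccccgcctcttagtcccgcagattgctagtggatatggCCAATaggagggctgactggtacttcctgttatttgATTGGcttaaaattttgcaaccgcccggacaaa
CDCA8: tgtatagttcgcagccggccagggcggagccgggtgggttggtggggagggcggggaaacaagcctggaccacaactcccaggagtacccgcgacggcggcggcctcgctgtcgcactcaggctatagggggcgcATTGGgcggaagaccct
These are chr11:62123761-62123972 for INCENP (212 bases) and chr1:37692266-37692417 for CDCA8 (152 bases), plus strand. The stretch at INCENP also overlaps the annotated span of the noncoding gene AP002793.1. The stretch held 2 matches in INCENP and 1 in CDCA8, and the whole 300 bases held 3 in each. The E-box CACGTG, the letters bound by MYC and MAX, was present at RAN and at the downstream start of RCC1 among the members and in 7.23% of all promoters. TGATGNAA, letters of the ATF4 element, was found in 3.62% of all promoters and in 0 of the 11 member promoters, which says only that these letters are not in these windows.

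Total counts ranged from 43687828 to 64715535 per library. Genes were tested with edgeR's quasi-likelihood test, and q below is its p adjusted by Benjamini and Hochberg over every gene tested, with calls made at q under 0.05. With labels as given, 0 of 16518 genes were called, 205 reached 0.05 unadjusted, and DESeq2 also called 0. The 6 single-end libraries alone gave 6901 calls among 16696 genes, 57.5% of them higher with CR31B, a share that was 40.0% with upper quartile scaling, 43.1% with total counts, 49.0% with GC and length offsets and 46.8% with those offsets and a replicate block. The libraries of pair 1 stand against their labels relative to the other pairs: 98.9% of 6882 such calls pointed the other way in pair 1. Pair 1 holds 1 library per group, so its differences have no replicate check, and layout, pair number and a possible exchange of the labels CR31B and DMSO cannot be told apart there. Directions given for the 8 libraries hold only as far as the labels of pair 1 do. Each member is therefore given with all 8 libraries, with the 6 single-end libraries and for pair 1 by itself, and no label was changed. In bulk RNA, more cells with a transcript and more transcript per cell cannot be told apart.

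The labelled cell type was checked against 14 neuroblastoma genes, all of which were detected. Their summed level was 7148 to 7835 CPM (counts scaled to library size with TMM factors) in the single-end CR31B libraries and 5119 to 5637 CPM in the single-end DMSO libraries. GATA3 and TBX2, adrenergic transcription factors, rose in these single-end libraries by 1.78 ± 0.074 and 1.31 ± 0.14 on the log2 scale (SE). DBH, the noradrenaline-forming enzyme, and STMN2, a neuronal tubulin binder, had -0.98 ± 0.21 and -0.81 ± 0.079. Pair 1 ran the other way, with -1.83 for GATA3, -1.42 for TBX2, 0.95 for DBH and 1.03 for STMN2. As labelled in 8 libraries, 0 of the 14 neuroblastoma genes passed. TH, which makes the precursor of dopamine, was near 2.30 CPM in the single-end DMSO libraries. Of 14 markers of blood, endothelial, fibroblast, epithelial, glial and liver cells, 4 (CD68, KRT5, KRT14 and GFAP) had 0 counts in all libraries and 12 stayed under 1 CPM. Their sum was 21.9 to 32.2 CPM in the single-end CR31B and 25.1 to 30.3 CPM in the single-end DMSO libraries, mostly from COL1A1. The leukocyte gene PTPRC, at only 12 to 50 raw counts per library, went there from 0.715 CPM with DMSO to 0.391 CPM with CR31B (edgeR q = 0.0447). In pair 1 PTPRC ran the other way, with a log2 difference of 1.56. MYCN itself had 2635 ± 274 CPM with CR31B and 2421 ± 190 CPM with DMSO (SD, n = 3) and did not pass. The part of the neuroblastoma markers' shift in the results below was not tested.

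Of the 10 members, 0 passed as labelled in 8 libraries, where 0.0% of all tested genes did (edgeR), and 0 reached 0.05 unadjusted. In the 6 single-end libraries 5 of 10 passed, against 41.3% of all tested genes, so the share of members called was near the background. TPX2, AURKA and INCENP were higher, where 23.8% of all tested genes were called higher, and CDCA8 and BIRC5 were lower, where 17.6% were. The members' median log2 fold change was 0.033 and that of all tested genes -0.007. All 10 members passed the filter on low counts. In 6 members the 3 CR31B and 3 DMSO single-end values did not overlap, as in 52.1% of all tested genes, and in 8 libraries that held for 0 of 10 members, against 0.66% of genes. The 5 called members had the same sign in pairs 2, 3 and 4 and the opposite sign in pair 1.

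**Figure D1:**
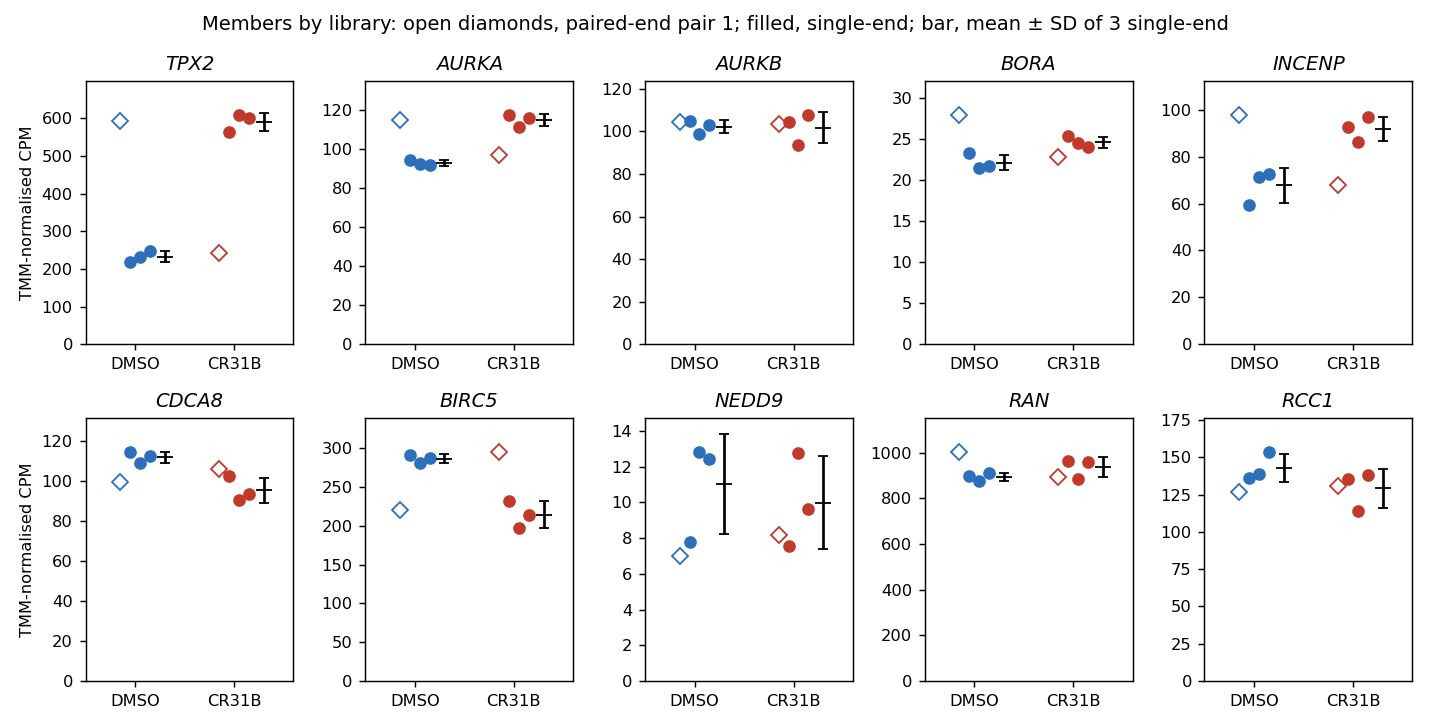
TMM-normalised CPM (y axis, from 0) of the 10 members in each library, by labelled group; filled points are single-end libraries, open diamonds the paired-end pair 1, and bars the mean ± SD of the 3 single-end libraries. TPX2 lies at 564 to 607 CPM in the single-end CR31B libraries and at 217 to 248 CPM in the DMSO ones, and its open diamonds sit near the level of the other group.

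TPX2 (ENSG00000088325, chromosome 20, 31739271 to 31801805, plus strand, GRCh38) encodes the spindle assembly factor that activates Aurora A. In the single-end libraries TPX2 counted 564, 607 and 600 CPM with CR31B, for replicates 2, 3 and 4, and 217, 233 and 248 CPM with DMSO. All 3 CR31B values were thus above all 3 DMSO values. The TPX2 difference was a 2.54-fold rise, log2 fold change 1.35 ± 0.061 (SE, n = 3 per group) (edgeR q = 5.07e-07). Pair 1 ran the other way, with 242 CPM of TPX2 under the label CR31B and 594 CPM under the label DMSO (log2 difference -1.29). With all 8 libraries the TPX2 log2 fold change was 0.75 ± 0.42 (edgeR q = 0.707), which is within the spread between libraries. Leaving out either library of pair 1 gave 1.35, with 5 members and 6920 or 6906 genes called. The layout term then absorbs the remaining paired-end library, so this repeats the single-end comparison by construction and adds no support.

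By size of rise TPX2 ranked 114 among 16696 genes tested in the single-end libraries, and 13 among the 2638 of these genes that averaged at least 100 CPM. The change of TPX2 was the largest of the 10 members in either direction. TPX2 is in the series title, and the members were chosen with earlier results of these data known. These ranks therefore describe TPX2 and are no independent support. Raw TPX2 counts ran from 12721 to 35203 per library, so counting error is small beside the spread between libraries. No exon of another annotated gene overlapped TPX2.

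**Figure D2:**
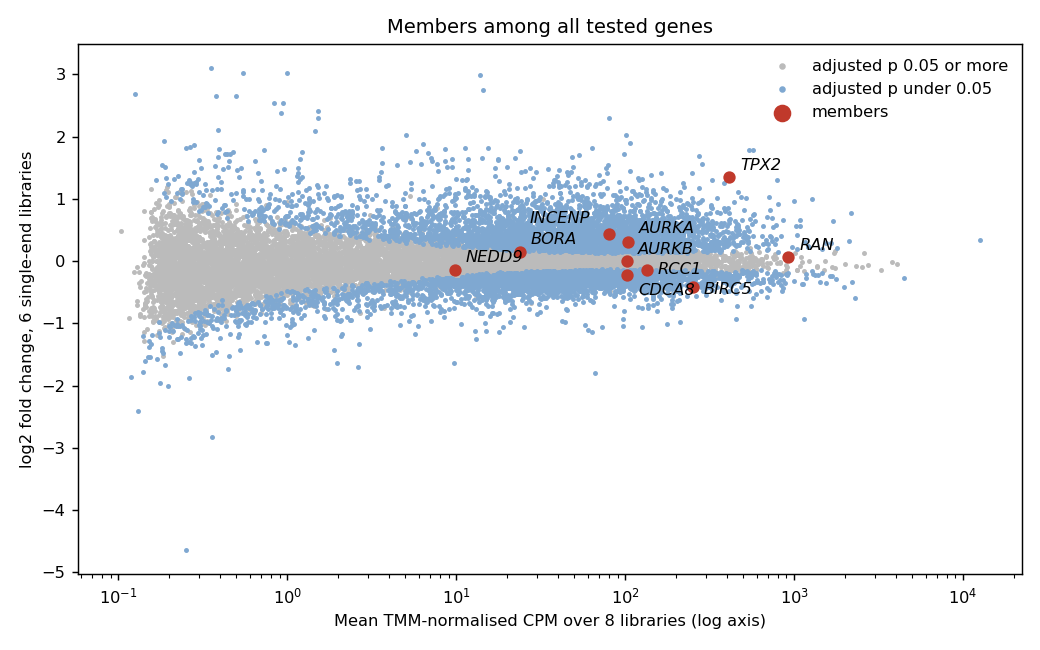
Mean CPM over 8 libraries (x axis, log) against the log2 fold change in the 6 single-end libraries (y axis) for each tested gene; blue points reached q under 0.05, grey points did not, and red points are the members. TPX2 is at 1.35, and the other members lie between -0.42 and 0.44.

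AURKA (ENSG00000087586, chromosome 20, 56369389 to 56392337, minus strand) encodes the spindle kinase itself. It counted 117, 111 and 116 CPM in the single-end CR31B libraries and 94.5, 92.4 and 91.7 CPM in the DMSO ones. These AURKA groups did not overlap either, although the step between them was small. The rise was 1.24-fold, log2 fold change 0.31 ± 0.047 (edgeR q = 0.000465). Pair 1 gave AURKA 97.1 CPM in the library labelled CR31B and 115 CPM in that labelled DMSO, a log2 difference of -0.24. As labelled, AURKA had log2 fold change 0.17 ± 0.1 (edgeR q = 0.707). Counts on the AURKA pseudogene AURKAP1 came to 0.225% of those on AURKA.

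TPX2 and AURKA act as a complex, so their ratio within a library was taken, a value that no scaling of libraries can move. TPX2 stood at 4.8, 5.45 and 5.19 times the AURKA CPM in the single-end CR31B libraries and at 2.3, 2.52 and 2.7 times in the DMSO ones, not corrected for length. The ratio was thus higher in each CR31B library than in any DMSO library of pairs 2 to 4. On the log2 scale the ratio was 2.36 ± 0.092 (SD, n = 3) with CR31B and 1.32 ± 0.117 (SD, n = 3) with DMSO, a difference of 1.04. A two-sided exact permutation test gave p = 0.1, the smallest that 3 against 3 allows. In pair 1 the ratio was 2.49 in the library labelled CR31B and 5.17 in that labelled DMSO. TPX2 was also higher against INCENP in the single-end libraries, from 3.26 to 3.66 times with DMSO to 6.09 to 7.04 times with CR31B. Against BIRC5 it went there from 0.744 to 0.861 times to 2.42 to 3.08 times, in both cases with no overlap. Pair 1 was reversed, with 3.56 under the label CR31B and 6.08 under DMSO for INCENP, and 0.82 and 2.7 for BIRC5. With 8 libraries the log2 difference of the TPX2 to AURKA ratio was 0.52 (exact permutation p = 0.286, where 0.0286 is the smallest possible).

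**Figure D3:**
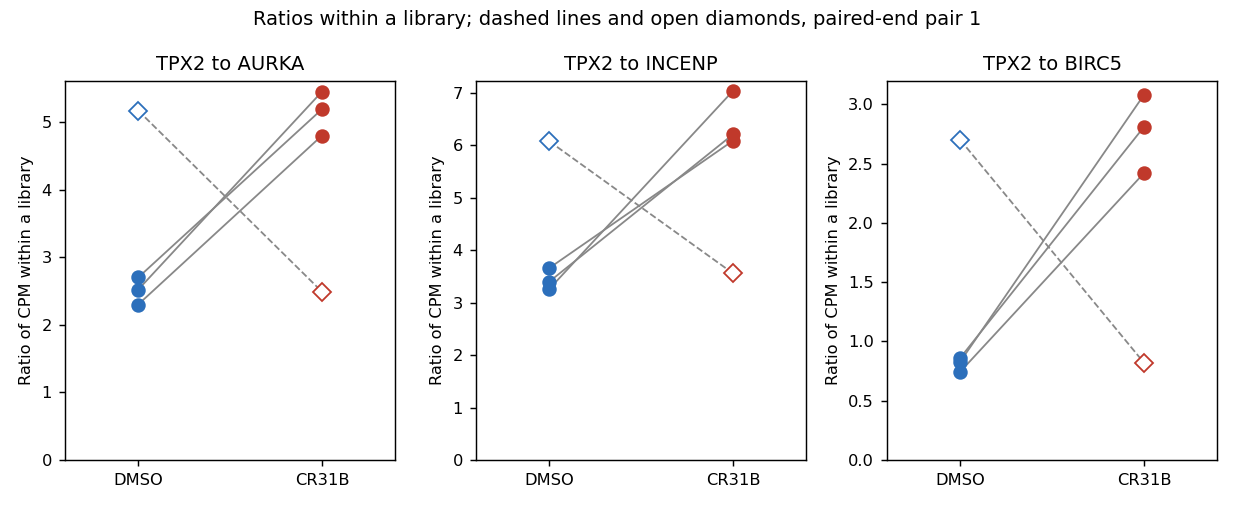
Ratio of the CPM of TPX2 to that of AURKA, INCENP and BIRC5 within each library (y axis, from 0), with lines joining libraries of the same number; open diamonds and dashed lines mark the paired-end pair 1. In pairs 2 to 4 each ratio is higher with CR31B, from 2.3 to 2.7 up to 4.8 to 5.45 for AURKA, and in pair 1 it is lower.

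BORA and NEDD9, which act on Aurora A away from TPX2, did not pass. BORA (ENSG00000136122, chromosome 13, 72727749 to 72756198, plus strand), the cofactor through which Aurora A activates the kinase PLK1, counted 25.3, 24.5 and 24.0 CPM with CR31B and 23.2, 21.4 and 21.7 CPM with DMSO in the single-end libraries. The BORA groups did not overlap, but BORA was not called, with log2 fold change 0.15 ± 0.063 (edgeR q = 0.0761). With replicate number as a block the same BORA value passed (edgeR q = 0.0305), but the block with GC and length offsets gave 0.1 (edgeR q = 0.13), upper quartile scaling 0.058 (edgeR q = 0.491) and total counts 0.076 (edgeR q = 0.379). In pair 1 BORA was at 22.8 CPM in the library labelled CR31B and 27.9 CPM in that labelled DMSO.

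BORA shares 1180 bases, 37% of its exons, with DIS3 on the opposite strand. The strand setting of the counts is not given in the sources used here beyond the word reverse in the table's name, so reads of the 2 genes may not be fully separate. DIS3, a subunit of the RNA exosome, had a log2 fold change of 0.16 ± 0.07 in the same libraries and did not pass. It passed with the replicate block (0.16, edgeR q = 0.049) and without CR31B replicate 3 (0.24, edgeR q = 0.00515), and turned to -0.092 with GC and length offsets.

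NEDD9 (ENSG00000111859, chromosome 6, 11183298 to 11382348, minus strand), an adhesion scaffold that can bind and activate Aurora A, was the scarcest member at 292 to 866 raw counts per library. Its single-end values were 7.59, 12.8 and 9.61 CPM with CR31B and 7.79, 12.8 and 12.4 CPM with DMSO. The NEDD9 groups overlapped, and both libraries of pair 2 were lower than those of pair 3. The log2 fold change was -0.14 ± 0.21 (edgeR q = 0.64). In pair 1 NEDD9 had 8.15 CPM in the library labelled CR31B and 6.99 CPM in that labelled DMSO. Replicate number as a block together with GC and length offsets gave NEDD9 -0.23 (edgeR q = 0.041).

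The 4 subunits of the chromosomal passenger complex did not move together. AURKB (ENSG00000178999, chromosome 17, 8204733 to 8210600, minus strand), its kinase, counted 104, 93.4 and 108 CPM with CR31B and 105, 98.8 and 103 CPM with DMSO in the single-end libraries. The AURKB groups overlapped fully, and the log2 fold change was -0.0046 ± 0.06 (edgeR q = 0.96). Its sign depended on the setting, with 0.11 (edgeR q = 0.265) under GC and length offsets. In pair 1 AURKB was 103 CPM in the library labelled CR31B and 104 CPM in that labelled DMSO, the smallest pair 1 difference of the 10 members.

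INCENP (ENSG00000149503, chromosome 11, 62123973 to 62153163, plus strand), the scaffold whose carboxyl end activates Aurora B, rose. Its values were 92.6, 86.3 and 96.7 CPM with CR31B and 59.3, 71.3 and 72.8 CPM with DMSO in the single-end libraries. The INCENP groups were apart, with DMSO replicate 2 the lowest. The rise was 1.36-fold, log2 fold change 0.44 ± 0.079 (edgeR q = 0.00133). Within pairs the INCENP log2 difference was 0.64, 0.28 and 0.41 for pairs 2, 3 and 4 and -0.52 for pair 1, where 68.0 CPM stood against 97.6 CPM under the label DMSO.

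CDCA8 (ENSG00000134690, chromosome 1, 37692418 to 37709719, plus strand) encodes borealin, which helps bring the complex to centromeres. It counted 102, 90.1 and 93.3 CPM with CR31B and 114, 109 and 112 CPM with DMSO in the single-end libraries. The 3 CDCA8 values with CR31B were below the 3 with DMSO. CDCA8 fell, with log2 fold change -0.23 ± 0.057 (edgeR q = 0.00819). In pair 1 CDCA8 had 106 CPM in the library labelled CR31B and 99.1 CPM in that labelled DMSO.

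BIRC5 (ENSG00000089685, chromosome 17, 78214186 to 78225636, plus strand) encodes survivin, a subunit of the complex and a member of the inhibitor of apoptosis family. It counted 233, 197 and 213 CPM with CR31B and 292, 281 and 288 CPM with DMSO in the single-end libraries, with no overlap. BIRC5 fell to 0.749 of the DMSO level, log2 fold change -0.42 ± 0.062 (edgeR q = 0.000419). Among genes averaging at least 100 CPM its fall ranked 102. In pair 1 BIRC5 had 295 CPM in the library labelled CR31B and 220 CPM in that labelled DMSO, a log2 difference of 0.42. As labelled in 8 libraries, edgeR q was 0.707 for INCENP, CDCA8 and BIRC5, with log2 fold changes of 0.2, -0.15 and -0.21, and 0.97 for AURKB with -0.0079.

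RAN and RCC1, the switch that frees TPX2 from importins, did not pass. RAN (ENSG00000132341, chromosome 12, 130871879 to 130877678, plus strand), the small GTPase, was the most abundant member, with 965, 887 and 961 CPM with CR31B and 898, 874 and 910 CPM with DMSO in the single-end libraries. The RAN groups overlapped and the log2 fold change was 0.07 ± 0.054 (edgeR q = 0.335), or -0.027 with upper quartile scaling. In pair 1 RAN had 894 CPM in the library labelled CR31B and 1003 CPM in that labelled DMSO. RAN has many processed pseudogenes, and the counts on RANP1, the copy with the most counts, came to 0.508% of those on RAN. How reads shared between copies were counted is not given in the sources used here. Their effect on the RAN counts was therefore not measured.

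RCC1 (ENSG00000180198, chromosome 1, 28505943 to 28539300, plus strand), the exchange factor that charges RAN with GTP, counted 135, 114 and 138 CPM with CR31B and 136, 139 and 154 CPM with DMSO in the single-end libraries. The RCC1 groups overlapped, and CR31B replicate 3 was the lowest. The log2 fold change was -0.14 ± 0.077 (edgeR q = 0.166). This RCC1 value was -0.06 (edgeR q = 0.467) without CR31B replicate 3 and -0.081 (edgeR q = 0.483) without DMSO replicate 4. GC and length offsets left RCC1 short of the threshold (-0.14, edgeR q = 0.25). RCC1 passed with replicate number as a block (-0.15, edgeR q = 0.0379), with upper quartile scaling (-0.24, edgeR q = 0.0146), with total counts (-0.22, edgeR q = 0.0186), with no filter (-0.16, edgeR q = 0.0422) and with the block and offsets together (-0.14, edgeR q = 0.0421). In pair 1 RCC1 had 131 CPM in the library labelled CR31B and 127 CPM in that labelled DMSO. RCC1 shares 242 exonic bases with the noncoding gene SNHG3 on the same strand, 6.22% of its exons, and SNHG3 had a log2 fold change of 0.11 ± 0.071.

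**Figure D4:**
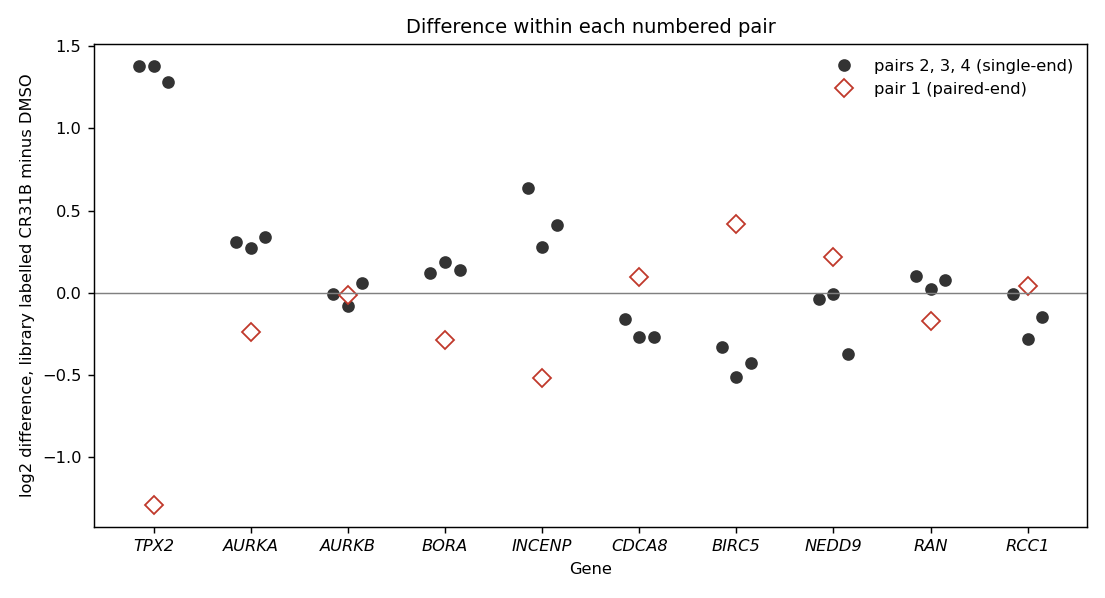
The log2 difference in CPM between the libraries labelled CR31B and DMSO of the same number (y axis) for each member (x axis); black points are pairs 2, 3 and 4 and open red diamonds the paired-end pair 1. TPX2 differs by 1.38, 1.38 and 1.28 in pairs 2 to 4 and by -1.29 in pair 1, and AURKB lies near 0 in every pair.

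The size of the gap between pair 1 and the other pairs was estimated with an interaction of treatment and layout. Pair 1 has 1 library per group, so its own variation does not enter the error, which comes from the single-end libraries, and the opposite signs were already known. The values are therefore given as a description and not as evidence on pair 1. By this estimate 6 of 10 members reached q under 0.05, where 42.5% of all tested genes did (edgeR). The interaction, pair 1 minus the other pairs, was -2.64 ± 0.12 for TPX2, -0.96 ± 0.16 for INCENP, -0.55 ± 0.093 for AURKA and -0.44 ± 0.13 for BORA. It was 0.84 ± 0.12 for BIRC5 and 0.33 ± 0.11 for CDCA8. AURKB, NEDD9, RAN and RCC1 did not reach it. In the 6 that did, pair 1 and the single-end libraries had opposite signs.

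Levels of different genes were compared as CPM per kilobase of annotated exon, which does not take account of which isoform is made. In the single-end DMSO libraries the order was RAN (185 ± 3.78, SD, n = 3), BIRC5 (75.2 ± 1.43) and TPX2 (64.5 ± 4.26). AURKB (45.6 ± 1.35) and CDCA8 (45.3 ± 1.12) followed and did not differ beyond their spread. RCC1 stood at 36.7 ± 2.43 and AURKA at 31.7 ± 0.481, then came INCENP at 15.2 ± 1.65, BORA at 6.93 ± 0.302 and NEDD9 at 1.06 ± 0.27. With CR31B, TPX2 stood at 164 ± 6.53 per kilobase, above BIRC5 at 56.2 ± 4.62 and still below RAN at 194 ± 9.14. AURKA (39.2 ± 1.05) and CDCA8 (38.5 ± 2.53) then lay within their spread of each other.

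Genes tied to these members by function were taken from 6 further lists, read in the single-end libraries, where 41.3% of all tested genes were called, 23.8% higher and 17.6% lower. Among 16 genes of the RAN cycle and the importins, 6 rose and 2 fell (50% called), with a median log2 fold change of 0.108. KPNB1, an importin beta, had 1720 ± 37.9 CPM (SD, n = 3) with CR31B and 862 ± 40.5 CPM with DMSO, log2 fold change 1.0 ± 0.056. XPO1, the export receptor that carries RAN-GTP cargo out of the nucleus, had 0.92 ± 0.058. With GC and length offsets KPNB1 gave 0.84 and XPO1 0.69. NUTF2, which returns RAN to the nucleus, fell with -0.39 ± 0.056. RANBP3, a cofactor of XPO1, had -0.19 ± 0.07 and passed narrowly: without any 1 of 5 of the 6 libraries, or with GC and length offsets, its call was lost, with edgeR q of 0.0578 to 0.171.

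Of 24 regulators and substrates of Aurora A, 11 rose and 2 fell (54.2% called), with a median of 0.099. AJUBA, a LIM protein that helps activate Aurora A, rose by 0.78 ± 0.14, from 3.89 ± 0.355 to 6.68 ± 1.06 CPM. FBXW7, the ubiquitin ligase subunit that marks MYCN and Aurora A among others for breakdown, rose by 0.65 ± 0.063. CDC25B, a phosphatase that Aurora A phosphorylates at centrosomes, fell with -0.68 ± 0.065, and PPP6C, the catalytic subunit of the phosphatase that acts on Aurora A, with -0.28 ± 0.075.

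The list of Aurora B recruitment factors and substrates had 9 of 22 genes higher and 3 lower (54.5% called), and a median of 0.09. MKI67, the chromosome surface protein used as a proliferation marker, rose from 227 ± 16.4 to 459 ± 32.9 CPM, a log2 fold change of 1.02 ± 0.07. With GC and length offsets MKI67 gave 0.79. CDCA2 rose by 0.83 ± 0.06. HASPIN, the kinase whose histone mark draws the passenger complex to centromeres, fell with -0.33 ± 0.077. NDC80, a kinetochore protein phosphorylated by Aurora B, had -0.22 ± 0.058 and lost its call without DMSO replicate 3 (-0.18, edgeR q = 0.0515).

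Among the 22 tested of 24 spindle assembly factors governed by RAN, 11 rose and 2 fell (59.1% called), with a median of 0.132. ASPM, a spindle pole protein, and KIF11, the motor that pushes spindle poles apart, both rose by 0.57, with SE of 0.071 and 0.051. With GC and length offsets ASPM rose by 0.3 and KIF11 by 0.4. HAUS2 and HAUS8, subunits of the augmin complex that branches microtubules, fell with -0.47 ± 0.066 and -0.26 ± 0.083. The HAUS8 call was lost without CR31B or DMSO replicate 3 or 4, with edgeR q of 0.0525 to 0.115. A list of 9 genes held relatives of NEDD9 and BIRC5 and also DIABLO, an antagonist of the inhibitor of apoptosis family and no relative. Of the 9, 6 passed the filter on low counts. Among these 6, 3 rose and 0 fell (50% called), with a median of 0.242. DIABLO was among the 6, at -0.467 (edgeR q = 0.114). BIRC2, a ubiquitin ligase of the BIRC5 family, rose from 30.5 ± 0.656 to 59.8 ± 1.33 CPM, and XIAP, the caspase inhibitor, by 0.42 ± 0.064, or by 0.17 (edgeR q = 0.0432) with GC and length offsets.

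In the list of cyclins and transcription factors of the G2 and M phases, 4 of 23 rose and 9 fell (56.5% called), with a median of -0.111. PKMYT1 and CDC25C, an inhibitor and an activator of CDK1, rose by 0.45 ± 0.05 and 0.39 ± 0.087. CKS1B, a CDK-binding subunit, and UBE2C, an enzyme of anaphase ubiquitination, fell with -0.49 ± 0.046 and -0.42 ± 0.064. Every called gene of these 6 lists had the opposite sign in pair 1, as did 98.9% of called genes in all, and 0 passed as labelled in 8 libraries (edgeR).

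**Figure D5:**
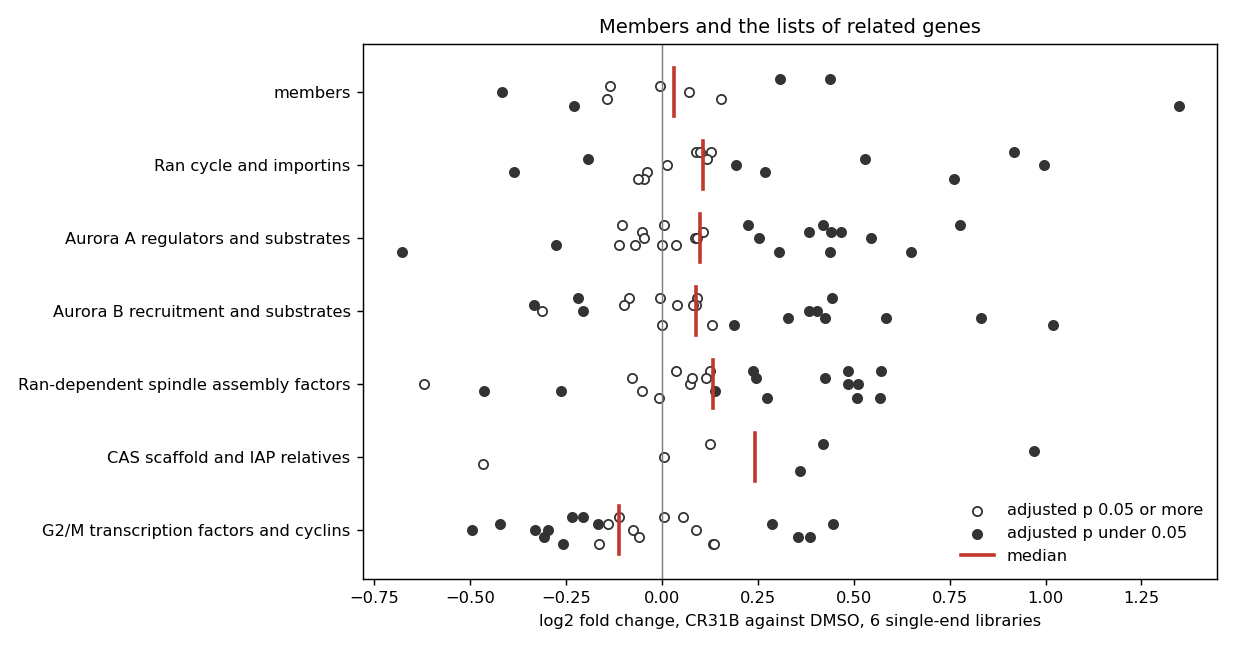
Log2 fold change in the 6 single-end libraries (x axis) of the tested members and of the tested genes of the 6 related lists (rows); filled points reached q under 0.05, open points did not, and the red line is the list's median. TPX2 at 1.35 is the rightmost point of all 7 rows, followed by MKI67 at 1.02 and KPNB1 at 1.0. The members and lists were chosen with earlier results of these data known.

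Protein-coding genes within 100 kb of TPX2 were examined as its neighbours. BCL2L1, an inhibitor of apoptosis that starts 15.3 kb from the TPX2 start on the other strand, had 69.8 ± 1.97 CPM with CR31B and 66.6 ± 1.63 CPM with DMSO in the single-end libraries, a log2 fold change of 0.068 ± 0.049. It did not pass (edgeR q = 0.299), and upper quartile scaling gave -0.028. MYLK2 and DUSP15 were under 5 CPM and did not pass, and FOXS1 and TTLL9 were too scarce to test.

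The likeness of other genes to TPX2 was measured as the Pearson correlation of log2 CPM over the 8 libraries, among 10798 genes averaging at least 5 CPM. The 5 closest were FBXO30, ERF, TWNK, CDC42BPA and GPRASP2, with r from 0.9982 to 0.9989. These libraries differ between groups for 6901 genes in the single-end set, so high values are common. TWNK, the mitochondrial DNA helicase, and GPRASP2, a receptor sorting protein, rose by 1.44 ± 0.059 and 1.46 ± 0.081 in the single-end libraries. Among the members AURKA came closest to TPX2 with r = 0.97, which ranked 1190, and INCENP had 0.941. BIRC5 was the most opposite at -0.965, and AURKB, at -0.043, followed TPX2 least.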

How the data were processed

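PolyA RNA of 8 IMR32 libraries, 4 per group, was sequenced, and the deposited table holds raw read counts per Ensembl gene. The submitters' processing notes name FastQC 0.11.7, STAR 2.7.2b, edgeR 3.36.0, limma 3.50.3 and build GRCh38. The counter and its strand setting are not given in the sources used here. The labels describe polyA RNA yet name a small RNA library kit. Symbols and coordinates came from GENCODE 29, which held 58515 of 58787 ids.

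Counts were filtered with filterByExpr, scaled with TMM and tested with edgeR 4.0.16 (quasi-likelihood, Benjamini-Hochberg) in R 4.3.3, with layout as a term where pair 1 entered. Ratios used exact permutation in scipy 1.17.1. DESeq2 1.42.0, other scalings, filters, offsets, a replicate block and leaving out each library were alternatives, and the code was tested on simulated data. Deviations of same-numbered single-end libraries correlated at 0.21, 0.39 and 0.16, in each case the best match. With 3 libraries per group such weak values cannot establish that the numbers pair the libraries. The main single-end test and the ratio tests carry no replicate block, which was run as an alternative. With pair 1 included, deviations of same-numbered libraries correlated at -0.53 to 0.16, and no library matched its own number best.

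The 10 members and all lists were chosen with earlier results of these data known. Beside members, the text names, per list, up to 2 called genes in each direction with the largest fold change, the 5 genes most like TPX2, its neighbours, and genes overlapping or copied from a member. MYCN, TH, COL1A1, DIABLO and the markers at 0 were named after their values were seen.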

Additional observations from a re-analysis of the deposited data

Results flagged for a closer look

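In groups of 4 libraries, a value was marked when its gap to the nearest other value, as a share of the group's range, exceeded Dixon's 95% critical value for 4 samples. Of 20 groups tested (10 members in each treatment), 4 passed, and all 4 were libraries of replicate 1. Chance gives about 1 in 20 for independent groups, but these groups share the same 8 libraries. The reversal of pair 1 was also already known, so the count is a description only. The share was 0.88 for TPX2 in the CR31B group, 0.919 for TPX2 in the DMSO group, 0.882 for AURKA in the DMSO group and 0.849 for BIRC5 in the DMSO group. In each the replicate 1 library lay nearer to the single-end libraries of the other label.

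For 6 members the interaction of treatment and layout reached q under 0.05 (edgeR), with the error taken from the single-end libraries. Pair 1 minus the other pairs was -2.64 for TPX2, -0.55 for AURKA, -0.44 for BORA, -0.96 for INCENP, 0.33 for CDCA8 and 0.84 for BIRC5 on the log2 scale. Pair 1 has 1 library per group, so its own spread was not measured, and these values describe the gap without showing that the effect of CR31B differed.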

How the results depend on the processing

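In the single-end libraries TPX2, AURKA, INCENP, CDCA8 and BIRC5 kept direction and call under every alternative run, with TPX2 at 1.25 to 1.35, or 1.3 to 1.4 with 1 library left out, where 5 members and 5582 to 6727 genes were called. With 8 libraries as labelled, leaving out 1 gave 0 to 6920 genes, 0 to 3974 higher and 0 to 2954 lower. Members called were 0 to 5, and the TPX2 value was 0.57 to 1.35. Only leaving out a library of pair 1 gave calls. The layout term then absorbs the other library of that pair, so such a fit repeats the single-end comparison by construction. Genes called lower in the single-end libraries numbered 2933, but 4509 with upper quartile scaling and 4486 with replicate block and GC and length offsets. The replicate block alone gave 8540 genes and 7 members, adding BORA (0.15) and RCC1 (-0.15). Members that did not pass could change sign. AURKB gave 0.04 with offsets and 0.036 with block and offsets in 8 libraries, 0.11 with either in the single-end ones, and -0.037 to 0.033 and -0.044 to 0.055 without 1 library. RAN in 8 libraries gave -0.031 with upper quartile scaling, -0.025 with total counts, -0.001 with no filter, -0.009 at a mean of at least 5 CPM, -0.00012 with block and offsets and -0.014 to 0.071 without 1 library, and in the single-end ones -0.027 with upper quartile scaling and -0.0093 with total counts. NEDD9 ran from -0.19 to 0.082 and from -0.36 to 0.032 without 1 library. BCL2L1 gave -0.028 with upper quartile scaling and -0.01 with total counts, and DIS3 gave -0.092 with offsets and -0.096 with block and offsets. Total counts moved the median interaction of all genes by 0.172. The cause of these shifts was not tested. Depth limits NEDD9 most, at 292 to 866 counts per library.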
